A study of Mus musculus with 18 samples.

Results

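The transcripts of 8 genes that write, copy or remove methylation of cytosine in DNA were followed across 6 mouse pluripotent stem cell lines. The genes are Dnmt1, Uhrf1, Dnmt3a, Dnmt3b, Dnmt3l, Tet1, Tet2 and Tet3, and their members on the array are the probe sets that the platform annotation gives 1 symbol, that of 1 of these genes. This gave 20 of 34945 probe sets with a single symbol, and 8 of 18193 genes. Dnmt3a had 5 probe sets, Tet1 had 4, Dnmt1 had 3, Uhrf1, Dnmt3b and Tet2 had 2 each, and Dnmt3l and Tet3 had 1 each.

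The study profiled total RNA on Affymetrix expression arrays, 3 arrays for each of 6 lines and 18 in all. R1 is an embryonic stem (ES) line of a 129X1/SvJ x 129S1 F1 embryo, and ESC2 is an ES line with the strain label B6 x D2 F1. IP14D-1, IP20D-3 and IP36D-3 are induced pluripotent stem (iPS) lines that share the B6 x D2 F1 label, and IP14D-101 is an iPS line labelled B6 x 129S2 F1. All cultures received LIF and grew on mitomycin C-treated mouse embryonic fibroblast feeders, in a medium with fetal bovine serum or knockout serum replacement. Which of these each line received is not stated in the labels. Each line is 1 derivation, so line, strain and reprogramming cannot be told apart in a comparison of 2 lines with different labels. Between an iPS and an ES line of the same label, line and reprogramming cannot be told apart either. The design text calls the arrays of a line biological replicates, but no label ties them to separate cultures, so the p-values measure only the spread between these arrays, which may be technical. The parental fibroblasts were not analysed here.

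DNA methyltransferases place a methyl group on cytosine, mostly in the dinucleotide CG. Dnmt1, brought to newly copied DNA by Uhrf1, restores methylation on the new strand after replication, whereas Dnmt3a and Dnmt3b methylate sites that were unmethylated, with Dnmt3l as a cofactor that has no catalytic activity of its own. Tet enzymes oxidise methylcytosine, which starts its removal, and mouse ES cells are known to express Tet1 and Tet2 with little Tet3.

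The promoters of Dnmt3a, Dnmt3b and Tet2, the 3 members called in IP20D-3 against ESC2, are printed here, since the enzymes' own genes carry the CG dinucleotides on which these enzymes act. Each is 250 bases before and 50 bases after a transcription start in RefSeq (GRCm38.p6), on the gene's strand, with every CG in capitals. Dnmt3a has an outer start and an internal start, and the internal one gives a shorter protein that is known to prevail in ES cells.
Dnmt3a, outer start, chr12:3806730-3807029, plus strand: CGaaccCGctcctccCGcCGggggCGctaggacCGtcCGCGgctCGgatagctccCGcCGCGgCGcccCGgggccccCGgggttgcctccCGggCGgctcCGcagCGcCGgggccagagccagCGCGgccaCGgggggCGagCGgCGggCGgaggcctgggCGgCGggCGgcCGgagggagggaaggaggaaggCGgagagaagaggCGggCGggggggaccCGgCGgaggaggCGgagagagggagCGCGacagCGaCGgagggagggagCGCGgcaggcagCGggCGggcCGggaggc
Dnmt3a, internal start, chr12:3891494-3891793, plus strand: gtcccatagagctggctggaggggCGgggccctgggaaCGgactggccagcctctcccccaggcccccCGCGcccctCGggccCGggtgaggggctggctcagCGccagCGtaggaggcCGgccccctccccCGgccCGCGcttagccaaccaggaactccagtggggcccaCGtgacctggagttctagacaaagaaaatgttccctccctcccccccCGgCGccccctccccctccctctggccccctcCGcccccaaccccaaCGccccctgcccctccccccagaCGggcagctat
Dnmt3b, chr2:153649199-153649498, plus strand: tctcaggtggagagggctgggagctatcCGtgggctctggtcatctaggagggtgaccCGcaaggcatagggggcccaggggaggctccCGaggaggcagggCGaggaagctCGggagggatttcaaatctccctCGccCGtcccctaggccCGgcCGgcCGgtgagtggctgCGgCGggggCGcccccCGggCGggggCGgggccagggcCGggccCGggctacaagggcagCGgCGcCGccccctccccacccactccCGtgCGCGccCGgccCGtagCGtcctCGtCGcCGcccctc
Tet2, chr3:133544341-133544640, minus strand: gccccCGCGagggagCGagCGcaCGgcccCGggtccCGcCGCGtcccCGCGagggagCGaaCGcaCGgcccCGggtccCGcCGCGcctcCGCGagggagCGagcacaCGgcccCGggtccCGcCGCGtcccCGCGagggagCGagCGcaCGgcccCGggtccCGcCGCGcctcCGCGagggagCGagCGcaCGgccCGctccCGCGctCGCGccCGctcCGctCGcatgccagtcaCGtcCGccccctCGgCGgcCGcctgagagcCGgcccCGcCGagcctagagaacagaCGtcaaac

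The Tet2 window held 57 CG, more than 99.8% of the 32851 promoter windows in the RefSeq table, whose median was 7. The outer Dnmt3a window held 46 CG and the internal one 18. The Dnmt3b window held 30. All 8 members had at least 1 window, 15 in all, and the other windows held between 2 CG, at a start of Dnmt1, and 47, at a further outer start of Dnmt3a. The windows of Dnmt3l held 6, 4 and 3 CG, each below the median of all windows. The motif GGGCGG, the core of the GC box, was found on either strand in 12 of the 15 windows, against 35.7% of all windows. The windows at the outer starts of Dnmt3a overlap, so these are not all separate sequences. Each of the 8 members had the motif in at least 1 window, a count by gene that the share of windows does not match. CCAAT was found in 5 of the 15 windows, against 37.4% of all windows. These matches are descriptions of letters, and the arrays measured neither methylation at these promoters nor which start was used.

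Levels below are log2 probe set intensities with the SD over n = 3 arrays, and the number of arrays limits their precision. Each gene is read by its brightest probe set (highest mean level across arrays), and its other probe sets are given beside it. Differences are log2 differences between line means with the standard error of a limma model over all 18 arrays. A difference was called at a Benjamini-Hochberg adjusted p under 0.05, over 45037 probe sets, with a size of at least 1, which is a doubling. Levels of different probe sets were not compared with each other, since probes differ in how strongly they bind. RNA was pooled over all cells of a culture, so fewer cells of a type and less RNA per cell cannot be told apart.

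All lines had high levels of the core pluripotency genes, which do not tell iPS from ES lines. Pou5f1 lay between 12.12 and 12.64 in the line means, Nanog between 11.24 and 11.80 and Sox2 between 11.58 and 12.18. Other pluripotency markers varied more. Zfp42 ranged from 9.11 in ESC2 to 11.24 in R1, and Esrrb from 8.15 in ESC2 to 10.34 in IP14D-101. Array medians were 29.2 to 30.5 on the linear scale, and arrays of 1 line correlated at r = 0.9935 to 0.9981 across genes, which are not independent replicates. IP14D-101 replicate 3 stood farthest from its line mean, with a root mean square deviation of 0.177 against 0.0899 at the least. The beta-actin control signal at the 3' end divided by that at the 5' end, a measure of RNA integrity and labelling, was 1.526 ± 0.043 in ESC2 and between 1.126 and 1.282 in the means of the other lines. Among those lines, R1 (1.126 ± 0.007) and IP14D-101 (1.143 ± 0.028) lay below IP36D-3 (1.261 ± 0.022), IP14D-1 (1.266 ± 0.019) and IP20D-3 (1.282 ± 0.024), without overlap of arrays. This ratio moves with every comparison against ESC2 and with those of R1 or IP14D-101 against the remaining iPS lines. Its part in them was not tested.

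Over the 15 pairs of lines, 23 of 120 differences of the 8 members were called, against 5.88% of all gene-by-pair differences and 8.56% among genes with a mean log2 level of at least 6. The pairs share lines and are not independent. Dnmt3a was called in 8 pairs, Tet2 in 5, Dnmt3b in 4, Tet1 in 4, and Dnmt1 and Dnmt3l in 1 each, while Uhrf1 and Tet3 were called in 0. Of the members, 6 of 8 were called in at least 1 pair, against 25.9% of all genes and 38.6% of genes with a mean of at least 6. In limma's F test over the 6 lines 8 of 8 members passed an adjusted p of 0.05, close to the 97.5% of genes with a mean of at least 6 and above the 77.3% of all genes.

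**Figure D1:**
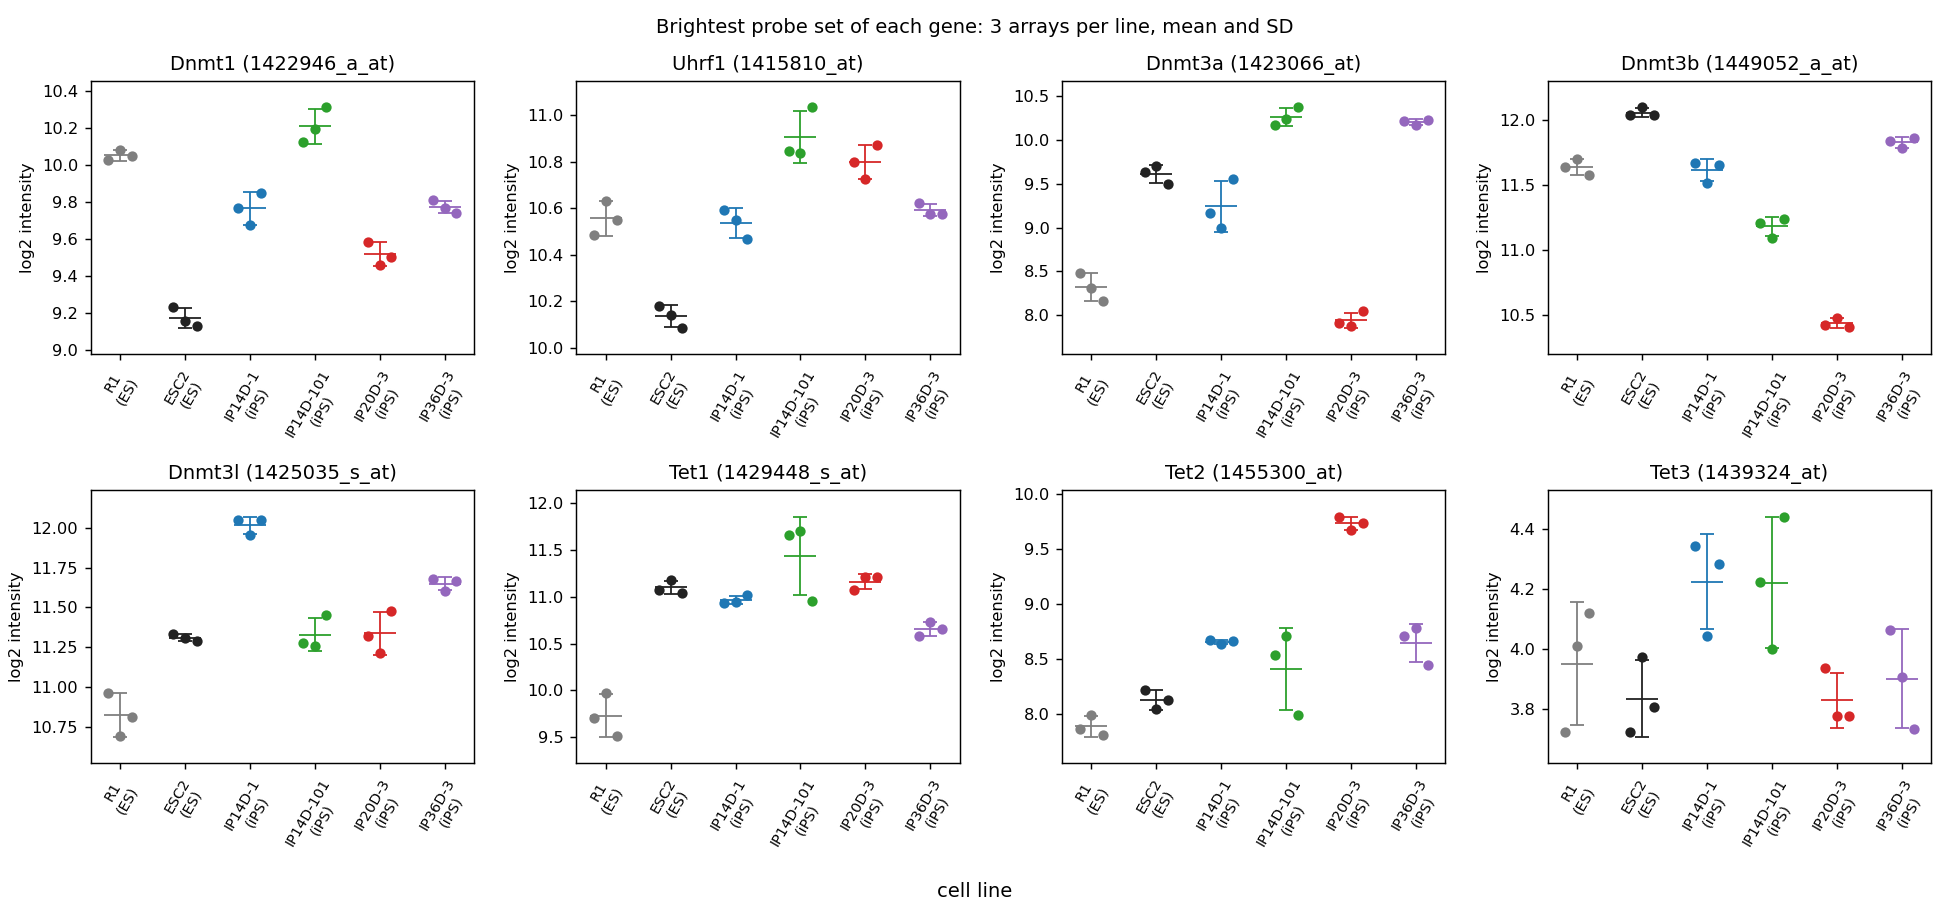
Log2 intensity (vertical axis) of the brightest probe set of each of the 8 genes in the 6 lines (horizontal axis); points are arrays, horizontal lines are means and whiskers are SD over 3 arrays, and each panel has its own scale. IP20D-3 is lowest for Dnmt3a (7.94) and Dnmt3b (10.43) and highest for Tet2 (9.74), and R1 is lowest for Tet1 (9.73).

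Dnmt1, the maintenance methyltransferase, was highest in IP14D-101 and lowest in ESC2. Its probe set 1422946_a_at read 10.12, 10.20 and 10.31 on the arrays of IP14D-101 and 9.23, 9.16 and 9.13 on those of ESC2. The means of the other lines lay between, at 10.05 ± 0.03 in R1, 9.77 ± 0.03 in IP36D-3, 9.77 ± 0.09 in IP14D-1 and 9.52 ± 0.06 in IP20D-3. Neighbours in this order that did not pass an adjusted p of 0.05 in limma were IP14D-101 and R1 (adjusted p = 0.186), and IP36D-3 and IP14D-1 (adjusted p = 0.9521). The arrays of ESC2 lay below those of every other line.

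The difference of Dnmt1 between IP14D-101 and ESC2 was 1.04 ± 0.08, or 2.05-fold (limma, adjusted p = 5.053e-09), and it was the only called difference of this gene. It was 0.99 without IP14D-101 replicate 3, under the fold threshold. The median of all genes was itself 0.148 higher in IP14D-101 than in ESC2, and relative to that median the Dnmt1 difference was 0.89. The other probe sets of Dnmt1, 1435122_x_at and 1447877_x_at, were called in 0 of 15 pairs, with 6 and 3 pairs past an adjusted p of 0.05 in limma. They ran parallel to the first over the 6 line means at r = 0.895 and 0.67. The same shift of all genes was 0.149 for R1 minus ESC2, -0.132 for IP20D-3 minus R1 and -0.126 for IP20D-3 minus IP14D-101. By brightest probe set, 1 further called member difference came under a size of 1 relative to the median of all genes, Dnmt3a in IP14D-1 minus IP14D-101, at -0.94, where its probe set 1423063_at was at -0.995. In IP20D-3 minus IP14D-101 the calls of the Dnmt3a probe set 1423063_at and the Dnmt3b probe set 1418351_a_at also did, at -0.917 and -0.9999.

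Uhrf1, the protein that recognises hemimethylated DNA and recruits Dnmt1, varied least among the members with levels well above the array median. Probe set 1415810_at was at 10.14 ± 0.05 in ESC2 and between 10.54 ± 0.06, in IP14D-1, and 10.91 ± 0.11, in IP14D-101, in the other lines. Its arrays in ESC2 (10.18, 10.14 and 10.09) lay below all other arrays. ESC2 was 0.40 below IP14D-1, the next line in the order (adjusted p = 0.0005849 in limma), a difference under the fold threshold. The second probe set, 1415811_at, passed the call in 1 pair, at 1.04 ± 0.10 for IP20D-3 minus ESC2 (2.06-fold, adjusted p = 2.281e-07 in limma).

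By brightest probe set ESC2 was lowest for both maintenance genes, although Dnmt1 probe set 1447877_x_at was lowest in IP14D-1, at 7.67 against 7.78 in ESC2. The 19 measured genes of S phase, when Dnmt1 and Uhrf1 are made, had their lowest mean in ESC2, at 9.854 against 9.929 to 10.182 in the other lines. Of these 19 genes, between 0 and 3 were called higher than in ESC2 in a line and at most 1 was called lower. The shares of all genes called in these pairs, in either direction, were 3.38% to 8.73%. IP36D-3, at 3.38%, had 3 called higher, the thymidine kinase Tk1, the replication factor Gins2 and the histone chaperone subunit Chaf1b. The actin ratio given above also set ESC2 apart. By brightest probe set, Dnmt1 fell from IP14D-101 through R1, IP36D-3, IP14D-1 and IP20D-3 to ESC2. The actin ratio rose in that order, except that R1 (1.126) lay below IP14D-101 (1.143). The part of the S phase genes or of the actin ratio in the Dnmt1 and Uhrf1 levels was not tested.

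Among the de novo enzymes, Dnmt3a spanned the widest range of the members by brightest probe set. Probe set 1423066_at read 10.17, 10.24 and 10.37 in IP14D-101 and 10.22, 10.17 and 10.22 in IP36D-3. It read 9.63, 9.70 and 9.50 in ESC2 and 9.17, 8.99 and 9.56 in IP14D-1. R1 gave 8.48, 8.31 and 8.16, and IP20D-3 gave 7.91, 7.88 and 8.04. In this probe set the arrays of the highest lines, IP14D-101 and IP36D-3, overlapped, and those of the lowest, R1 and IP20D-3, did not. The arrays of ESC2 and IP14D-1, in the middle, overlapped, though their means differed by 0.37 (adjusted p = 0.02384 in limma). In the other Dnmt3a probe sets ESC2 lay above IP14D-1 without overlap. In 1423064_at they stood at 9.86 ± 0.13 and 9.39 ± 0.16, with IP36D-3 at 10.03 ± 0.02. The range of line means, 2.32, was larger than that of 97.1% of genes with a mean of at least 6.

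IP20D-3 was 4.98-fold below IP14D-101 in Dnmt3a (-2.32 ± 0.12, limma adjusted p = 7.512e-11) and 4.79-fold below IP36D-3 (-2.26 ± 0.12, adjusted p = 3.228e-10). It was 3.18-fold below the ES line of its own strain label, ESC2 (-1.67 ± 0.12, adjusted p = 3.944e-09 in limma). Dnmt3a was therefore both highest and lowest in iPS lines. The ES line R1 was 3.84-fold below IP14D-101, 3.69-fold below IP36D-3 and 2.45-fold below ESC2, all called. R1 and IP20D-3 differed by 0.38 (adjusted p = 0.01352 in limma), under the fold threshold.

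The position of IP14D-1 for Dnmt3a depended on single arrays. Its difference from IP14D-101 was -1.02 ± 0.12 with all arrays and was called. It lost the call at -0.98 without IP14D-1 replicate 1, at -0.90 without IP14D-1 replicate 2, at -0.965 without IP14D-101 replicate 3, and at -0.997 with array weights. Its difference from IP36D-3, at -0.96 with all arrays, was called at -1.12 without IP14D-1 replicate 3. Its difference from R1, at 0.92 with all arrays, was called at 1.00 without R1 replicate 1 and at 1.04 without IP14D-1 replicate 2.

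Of the 4 other Dnmt3a probe sets, 1423064_at and 1423065_at followed the first closely, at r = 0.985 and 0.988 over the 6 line means and the same direction in 15 of 15 pairs. Of the 8 called pairs of the first, 7 were called in the same direction by each of them. Probe set 1423063_at (r = 0.833) shared 2 of these calls and placed IP14D-1 lowest, at 6.28 against 6.32 in IP20D-3. Probe set 1460324_at, whose mean over the arrays was 5.47, near the array median, shared 0 of them (r = 0.521) and also placed IP14D-1 lowest, at 4.96 ± 0.06. In this last probe set IP20D-3 stood at 5.55 ± 0.14, within the range of the other lines.

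**Figure D2:**
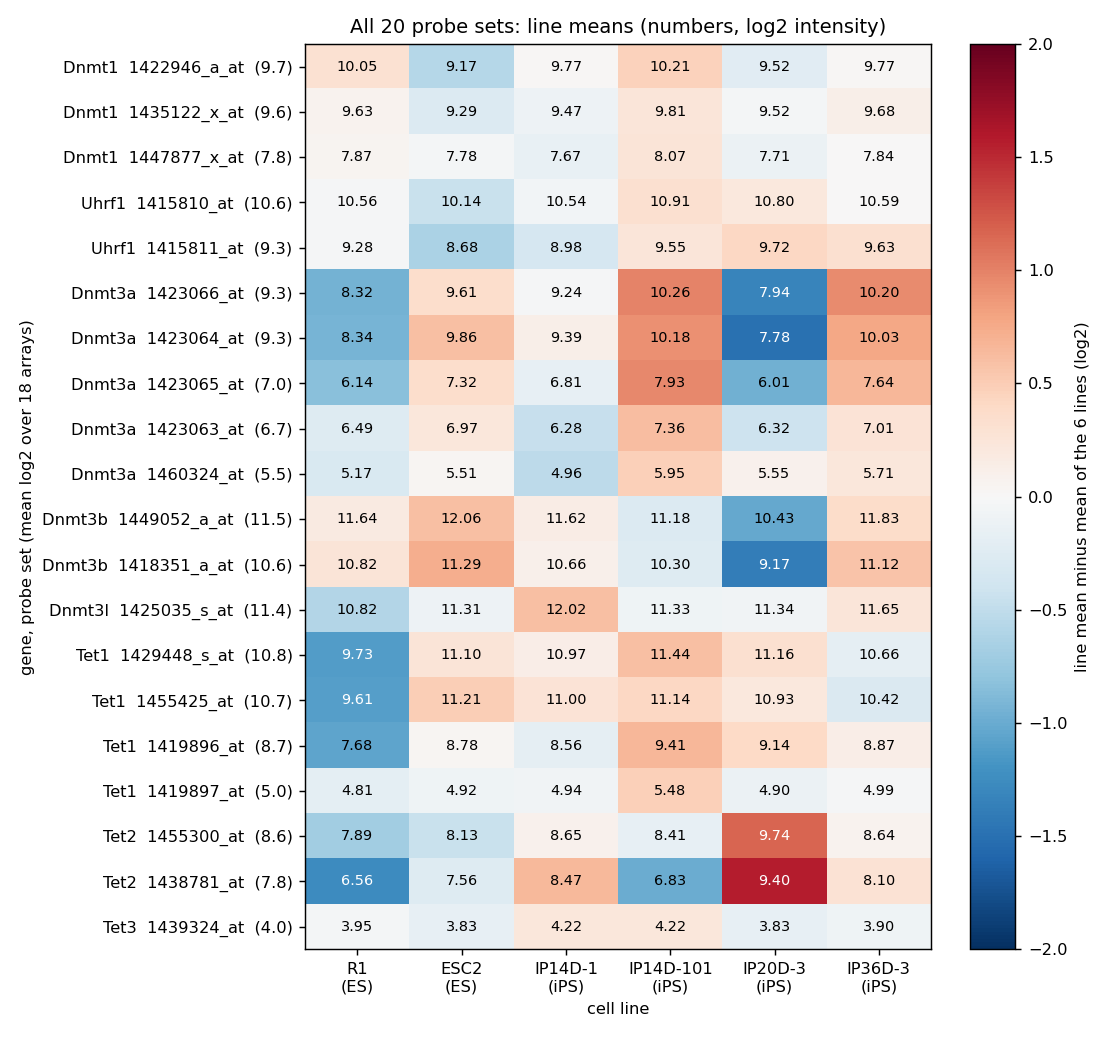
Line means in log2 intensity (numbers) of all 20 probe sets (rows, with the mean over 18 arrays in parentheses) in the 6 lines (columns); colour is the line mean minus the mean of the 6 lines. The low Dnmt3a level of IP20D-3 appears in 1423066_at (7.94), 1423064_at (7.78) and 1423065_at (6.01), and the 2 probe sets each of Dnmt3b and Tet2 share their extreme line, IP20D-3.

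Dnmt3b, the de novo enzyme that prevails in the early embryo, was lowest in IP20D-3 and highest in ESC2. Probe set 1449052_a_at read 10.42, 10.47 and 10.41 in IP20D-3. It read 11.21, 11.10 and 11.24 in IP14D-101, the next line up, and 12.04, 12.10 and 12.04 in ESC2. The means of IP14D-1, R1 and IP36D-3 were 11.62 ± 0.08, 11.64 ± 0.06 and 11.83 ± 0.04. All arrays of IP20D-3 lay below every array of the other lines, and the only neighbours in the order whose arrays overlapped were R1 and IP14D-1 (adjusted p = 0.846 in limma).

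All 4 called differences of Dnmt3b had IP20D-3 as the lower line. IP20D-3 was 3.09-fold below ESC2 (-1.63 ± 0.07, limma adjusted p = 1.42e-11), 2.63-fold below IP36D-3, 2.30-fold below R1 and 2.27-fold below IP14D-1. Against IP14D-101 the gap was 0.75 (adjusted p = 1.401e-07 in limma), under the fold threshold. The second probe set, 1418351_a_at, shared the 4 calls and also passed against IP14D-101, at -1.13 ± 0.11 (adjusted p = 1.521e-07 in limma). It followed the first at r = 0.994 over the 6 line means.

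Dnmt3l, the cofactor of the de novo enzymes, showed another order, with IP14D-1 highest and R1 lowest. Its single probe set, 1425035_s_at, read 12.05, 11.96 and 12.05 in IP14D-1 and 10.96, 10.69 and 10.81 in R1. IP36D-3 followed IP14D-1 at 11.65 ± 0.04. IP20D-3, IP14D-101 and ESC2 stood together at 11.34 ± 0.14, 11.33 ± 0.11 and 11.31 ± 0.02, and neighbours among them did not differ beyond their spread (adjusted p = 0.9466 and 0.8676 in limma). The called difference was IP14D-1 above R1, at 1.20 ± 0.09 (2.29-fold, adjusted p = 2.472e-08 in limma). In IP20D-3, where the brightest probe sets of Dnmt3a and Dnmt3b were lowest, Dnmt3l differed from ESC2 by 0.03 and from IP14D-101 by 0.01.

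Among the oxidising enzymes, Tet1 was lowest in R1. Probe set 1429448_s_at read 9.71, 9.97 and 9.51 in R1 and 11.08, 11.18 and 11.04 in the other ES line, ESC2. It stood at 11.16 ± 0.08 in IP20D-3, 10.97 ± 0.05 in IP14D-1 and 10.66 ± 0.07 in IP36D-3. The arrays of IP14D-101 read 11.66, 11.70 and 10.95, so that replicate 3 alone fell among the other lines. R1 lay below all other arrays, and among the other 5 lines no neighbours in the order passed an adjusted p of 0.05 in limma (0.1267 to 0.7836).

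R1 was 3.27-fold below IP14D-101 in Tet1 (1.71 ± 0.15 for IP14D-101 minus R1, limma adjusted p = 2.295e-07), 2.70-fold below IP20D-3, 2.59-fold below ESC2 and 2.36-fold below IP14D-1, all called. The difference of IP36D-3 from R1, 0.93 with all arrays, was called at 1.05 without R1 replicate 2. Without IP14D-101 replicate 3 the difference of IP14D-101 from R1 was 1.95, and that of IP36D-3 from IP14D-101, -0.78 with all arrays, was called at -1.02. Probe sets 1455425_at and 1419896_at, at r = 0.963 and 0.928 with the first, shared 4 and 3 of its 4 calls. Probe set 1419897_at had a mean of 5.01, near the array median, and was called in 0 pairs, with 5 pairs past an adjusted p of 0.05 in limma.

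Tet2 was highest in IP20D-3. Probe set 1455300_at read 9.79, 9.68 and 9.74 in IP20D-3. It read 8.67, 8.63 and 8.66 in IP14D-1, 8.70, 8.78 and 8.45 in IP36D-3, and 8.53, 8.71 and 7.99 in IP14D-101. The ES lines were lowest, at 8.21, 8.04 and 8.12 in ESC2 and 7.86, 7.99 and 7.80 in R1. All arrays of IP20D-3 lay above every array of the other lines, and no other neighbours in the order passed an adjusted p of 0.05 (0.09613 to 0.9565 in limma).

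All 5 called differences of Tet2 were rises in IP20D-3 over each of the other lines. They were 3.61-fold over R1 (1.85 ± 0.14, limma adjusted p = 3.036e-09), 3.05-fold over ESC2 (1.61 ± 0.14, adjusted p = 2.83e-08) and 2.51-fold over IP14D-101. Those over IP36D-3 and IP14D-1 were 2.13-fold and 2.12-fold. The difference from IP36D-3, 1.09 with all arrays, lost the call at 0.995 without IP36D-3 replicate 3. The second probe set, 1438781_at, gave the same extreme line, at 9.40 ± 0.05 in IP20D-3 against 6.56 ± 0.32 in R1, and was called in 8 pairs. It shared 4 of the 5 calls of the first, and IP14D-1 minus IP20D-3, at -0.93, was not called. Its level in IP14D-101, 6.83 ± 0.85, rested on replicate 3, which read 5.84 against 7.29 and 7.35. Without that array IP36D-3 exceeded IP14D-101 by 0.79 in this probe set, and the call at 1.28 with all arrays was lost.

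IP14D-101 replicate 3 departed from its line in Tet1 and Tet2. It lay below the mean of the other arrays of its line in the 3 brighter Tet1 probe sets (-0.73, -0.79 and -0.72), and also in the Tet2 probe sets (-0.63 and -1.48). In the brightest probe sets of Dnmt1, Uhrf1, Dnmt3a, Dnmt3b and Dnmt3l it lay 0.09 to 0.19 above it. Over the array, 64 of 8958 genes with a mean of at least 6 were more than 1 below the other arrays of the line and 0 were more than 1 above.

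Tet3 had a single probe set, 1439324_at, with line means of 3.83 to 4.22, under the array median, so a level above background was not shown. It was called in 0 pairs by limma, with 4 of 15 pairs past an adjusted p of 0.05, and the arrays of all neighbours in its order overlapped.

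The comparison of IP20D-3 with ESC2, an iPS and an ES line of 1 strain label, thus held called differences in 3 of 8 members, Tet2 upward and Dnmt3a and Dnmt3b downward, against 8.6% of all genes. IP20D-3 against IP36D-3 gave the same 3 members in the same directions (4.24% of genes called), as did IP20D-3 against IP14D-1 (4.96%). Against R1, IP20D-3 was higher in Tet1 and Tet2 and lower in Dnmt3b (3 of 8, 12.7% of genes), and against IP14D-101 it was higher in Tet2 and lower in Dnmt3a (2 of 8, 10.1%). These comparisons share the arrays of IP20D-3, so their likeness is no separate evidence.

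For IP14D-1 minus ESC2 and IP36D-3 minus ESC2, 0 of 8 members were called (3.44% and 3.38% of genes), with 7 members at an unadjusted p under 0.05 in limma in each, against 5 in IP20D-3 minus ESC2. The share of all genes at that unadjusted p was not counted for pairs of lines. Such counts, here and for the lists below, therefore have no background beside them. Dnmt1 and Dnmt3l differed from ESC2 by 0.59 and 0.71 in IP14D-1 and by 0.34 and 0.03 in IP20D-3, all under the fold threshold. IP14D-1 against IP36D-3 gave 0 calls in limma (3.39% of genes), though 4 members had an unadjusted p under 0.05, and IP36D-3 against IP14D-101 gave 0 (4.17%), though 6 members did. IP14D-1 was called lower than IP14D-101 in Dnmt3a (1 of 8, 3.73%) and higher than R1 in Dnmt3l and Tet1 (2 of 8, 3.85%).

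R1 against ESC2, the 2 ES lines, differed in Dnmt3a and Tet1, both lower in R1 (2 of 8, 8.13% of genes). IP14D-101 was higher than R1 in the same 2 genes (2 of 8, 2.52%) and higher than ESC2 in Dnmt1 (1 of 8, 8.73%). IP36D-3 exceeded R1 in Dnmt3a (1 of 8, 6.18%).

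**Figure D3:**
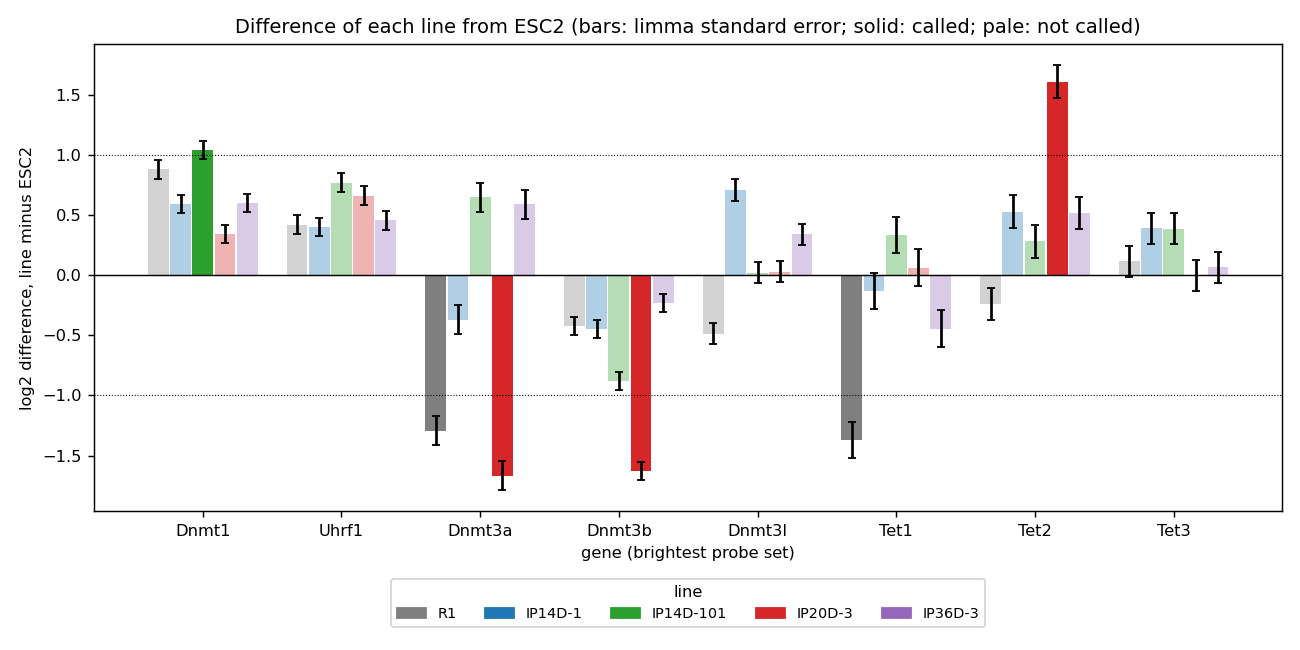
Log2 difference (vertical axis) of each line from ESC2 for the brightest probe set of the 8 genes (horizontal axis), with limma standard errors as whiskers; solid bars were called, pale bars were not, and dotted lines mark a difference of 1 in size. The called bars are Dnmt1 in IP14D-101 (1.04), Dnmt3a in R1 (-1.29) and IP20D-3 (-1.67), Dnmt3b in IP20D-3 (-1.63), Tet1 in R1 (-1.37) and Tet2 in IP20D-3 (1.61), and all bars share the ESC2 arrays.

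Cell type as such, iPS against ES, was compared on the 6 line means, 4 lines against 2. limma called 0 of 8 members and 0 of 45037 probe sets (0% called), while 1451 probe sets had an unadjusted p under 0.05, and every member had an adjusted p of 1. Among the brightest probe sets the line means of 2 of 8 members did not overlap between the types, against 9.89% of all genes. Tet2 was at 8.86 ± 0.60 (SD, 4 iPS lines) and 8.01 ± 0.17 (2 ES lines), a difference of 0.85 ± 0.37, and was higher in 4 of 4 iPS lines. In its other probe set, 1438781_at, the types overlapped, since IP14D-101 at 6.83, or 7.32 without its replicate 3, lay below ESC2 at 7.56. Dnmt3l was at 11.58 ± 0.33 and 11.07 ± 0.34, a difference of 0.52 ± 0.25. Its types barely separated, since IP14D-101 at 11.33 and ESC2 at 11.31 had overlapping arrays (limma between these lines, adjusted p = 0.8676). The difference of Dnmt3b was -0.58 ± 0.40 and that of Dnmt3a 0.45 ± 0.73, the latter with an SD of 1.09 among the iPS lines. Without R1 the difference of Dnmt3a was -0.20 and that of Tet1 turned from 0.64 to -0.044, and without ESC2 that of Dnmt1 turned from 0.20 to -0.24.

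Over the 6 line means, Dnmt3b and Tet2 ran opposite to each other, at a Pearson r of -0.805, and Dnmt3b and Uhrf1 likewise at -0.763. Dnmt3a and Dnmt3b correlated at 0.523, Dnmt3a and Tet2 at -0.37, and Dnmt1 and Uhrf1 at 0.703. These are descriptions over 6 points, and the genes of a pair were read on the same arrays. IP20D-3 stands at the end of both scales for Dnmt3b and Tet2, and in the other 5 lines the means lay between 11.18 and 12.06 for Dnmt3b and between 7.89 and 8.65 for Tet2.

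**Figure D4:**
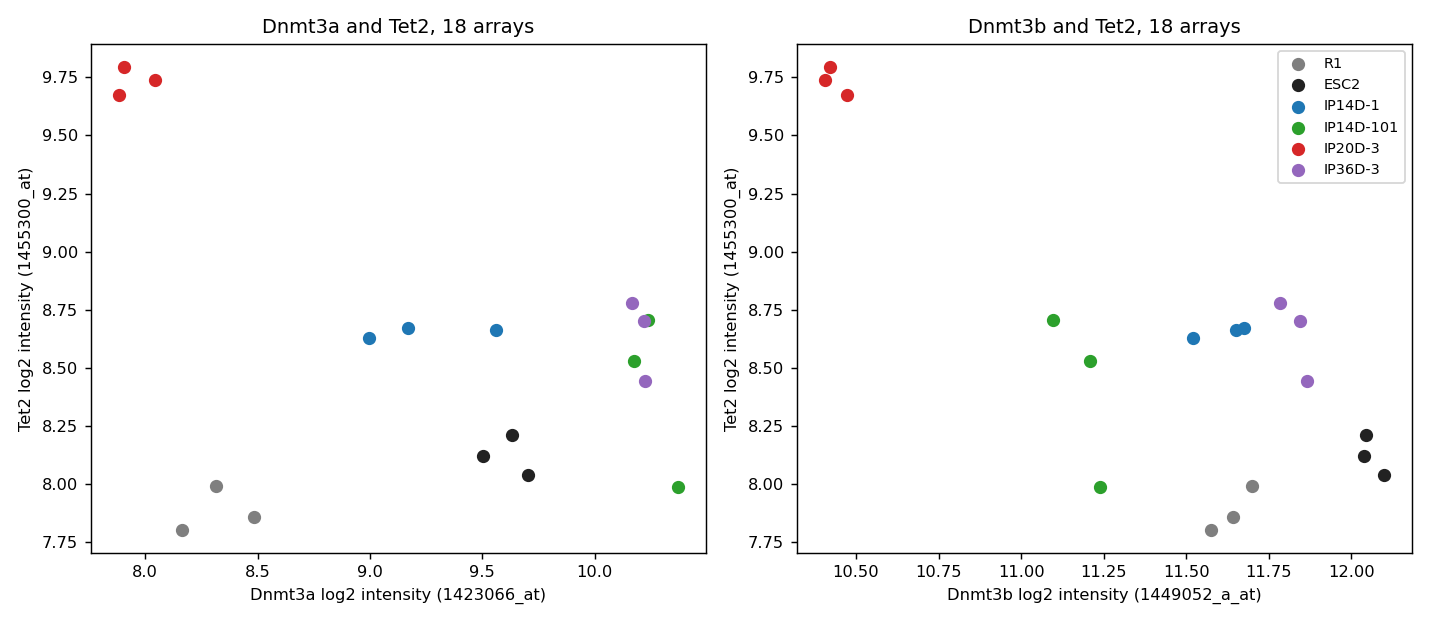
Log2 intensity of Tet2 (vertical axes) against Dnmt3a (left) and Dnmt3b (right) on the 18 arrays, coloured by line. The 3 arrays of IP20D-3 stand alone at high Tet2 (9.68 to 9.79) and low Dnmt3a (7.88 to 8.04) and Dnmt3b (10.41 to 10.47).

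For each member called in at least 1 pair, the genes most like it over the 6 line means were sought among 3370 genes with a mean of at least 6 and a range of at least 1. Dnmt3b was followed most closely by Mpp6 (r = 0.991), Fgfbp1, Cul1, the Notch ligand Jag1 and Trib2 (r = 0.978). Tet2 was followed by Rbpj, the DNA-binding factor of Notch signalling (r = 0.994), C2cd5, Dram2, Etfrf1 and Cep57l1 (r = 0.986), and Dnmt1 by Cbs, an enzyme of homocysteine metabolism (r = 0.995), Myo18a, Zfp777, Gtpbp1 and Sgta (r = 0.990). Dnmt3a had fewer like it, with Enpp3 (r = 0.947), Gas1, Serping1, Ydjc and Insig1 (r = 0.918). At r = 0.9 or more there were 225 genes for Dnmt1, 213 for Tet2, 41 for Dnmt3b and 7 for Dnmt3a.

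Tet1 and Dnmt3l each had 1 gene at that level. Tet1 was followed by the neural transcription factor Olig2 (r = 0.930), Rpgrip1, the LIF receptor Lifr, Bnc2 and Olig1 (r = 0.864). Dnmt3l was followed by Armcx1 (r = 0.927), Zcchc3, Trim2, Gadd45g and the lipid transporter Abca1 (r = 0.877).

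The counts of the pathway lists in IP20D-3 minus ESC2 stand beside the 8.6% of all genes called in that pair. Of 11 measured genes listed with maintenance methylation, 0 were called by limma and 9 had an unadjusted p under 0.05. The median difference of the 11 was 0.156 against 0.009 over all genes. Ehmt2, a histone H3 lysine 9 methyltransferase, was the 1 called gene of this list in R1 minus ESC2 (1.34 ± 0.11). It was also the 1 called in IP14D-101 minus ESC2 (1.57 ± 0.11), and was called lower in IP20D-3 than in R1 and in IP14D-101. Zbtb24 was called higher in IP20D-3 than in R1, and Trdmt1, a tRNA methyltransferase, higher in IP36D-3 than in R1. Hells, the remodeller that opens chromatin to these enzymes, lay between 10.63 ± 0.20 in R1 and 11.39 ± 0.03 in ESC2. A further list held 7 measured genes of the families that include the readers of methylated CG. Of these, Mbd3 was called higher and Zbtb33 lower in both R1 and IP14D-101 against ESC2. In IP20D-3 minus ESC2 0 of 7 were called by limma, with 5 at an unadjusted p under 0.05.

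Among 10 regulators of de novo methylation, IP20D-3 had 2 called against ESC2, beside 8.6% of all genes, and IP14D-1 had 3, beside 3.44%. Prdm14, a repressor of the Dnmt3 genes in naive cells, was at 8.24 ± 0.18 in IP20D-3, its highest level, and at 5.91 ± 0.05 in ESC2, its lowest. The difference was 2.33 ± 0.10 (5.02-fold, limma adjusted p = 8.756e-12). It lay between 6.83 and 7.41 in the other lines, including IP14D-101 and IP36D-3, the lines with the most Dnmt3a. By brightest probe set Dnmt3b was placed the opposite way to Prdm14 at both ends, lowest in IP20D-3 and highest in ESC2. The part of Prdm14 in the Dnmt3 levels was not tested. Kdm1b, a histone H3 lysine 4 demethylase needed for imprints in the egg, was 2.41-fold lower in IP20D-3 than in ESC2 (-1.27 ± 0.09). Both were also called in IP14D-1 minus ESC2, Prdm14 at 1.03 ± 0.10 and Kdm1b at -1.07 ± 0.09, and the third in that line was Zfp57, at 2.45 ± 0.10.

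Other regulators set further lines apart. Zfp57, which protects imprinted methylation, was lowest in ESC2 at 6.26 ± 0.05, and was called higher in R1 (8.86 ± 0.12), IP14D-1 (8.70 ± 0.09) and IP14D-101 (9.57 ± 0.04). Dppa3, which shields methylation from oxidation in the zygote, was called lower in R1 than in ESC2, at 6.65 ± 0.06 against 9.22 ± 0.07. Atrx, a chromatin remodeller, was called lower in R1 and in IP14D-101 than in ESC2, with an SD of 0.76 over the arrays of IP14D-101.

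Of 15 genes of oxidised base repair or partners of the Tet enzymes, IP20D-3 had 2 called higher than ESC2 and 0 lower, beside 8.6% of all genes called in either direction. They were the cytidine deaminase Apobec1 (1.65 ± 0.15) and the DNA glycosylase Neil3 (1.04 ± 0.17). Ogt, the sugar transferase that binds Tet proteins, was called lower in R1 (-1.20 ± 0.10) and IP14D-101 (-1.04 ± 0.10) than in ESC2. Gadd45g, a stress-induced factor linked to demethylation, was called higher than in ESC2 in IP14D-1 (1.57 ± 0.16) and lower in R1 (-1.05 ± 0.16) and IP14D-101 (-1.12 ± 0.16).

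Of 8 enzymes that supply the methyl donor or the Tet cofactor, 2 were called higher in IP20D-3 than in ESC2. They were Idh2, which makes the Tet cofactor alpha-ketoglutarate in mitochondria, at 9.91 ± 0.10 against 8.01 ± 0.04, and Shmt2, which feeds serine into the one-carbon pool, at 10.67 ± 0.01 against 9.28 ± 0.08. Both had their highest line mean in IP20D-3.

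Of 16 germline genes known to be silenced by promoter methylation, 4 were called higher in IP20D-3 than in ESC2 and 1 lower, with a median difference of 0.278 against 0.009 over all genes. The meiotic genes Sycp3 and Sycp1 were 2.95-fold and 2.35-fold higher, and Sohlh2 and Stk31 2.84-fold and 2.20-fold higher. Rhox5, a homeobox gene, went the other way, at 7.44 ± 0.24 in IP20D-3 and 11.09 ± 0.01 in ESC2 (-3.64 ± 0.11, 12.5-fold, limma adjusted p = 1.3e-13). Rhox5 was also called lower in each of the other lines than in ESC2. In IP14D-1, IP36D-3 and IP14D-101 it was the only one of the 16 that limma called against ESC2, while 10, 8 and 7 of the 16 had an unadjusted p under 0.05. In R1, Mov10l1 was called higher than in ESC2. The median shift of the list was not particular to IP20D-3. For IP14D-1 minus ESC2 it was 0.289, against 0.064 over all genes. The list mean was 6.235 in IP20D-3, 6.201 in IP14D-1 and between 5.814 and 6.052 in the other lines.

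Markers of other cell states also differed between the lines. Of 7 genes of the primed epiblast, a later state in which Dnmt3a and Dnmt3b are known to be high, 4 were called lower in IP20D-3 than in ESC2 and 0 higher, with a median of -2.17 against 0.009 over all genes. Pou3f1 was 7.78-fold, Fgf5 6.83-fold, Sall2 5.39-fold and Otx2 4.51-fold lower. The summed linear intensity of the list was 645.1 to 708.3 on the IP20D-3 arrays and 1764.9 to 2227.3 on those of ESC2. The list mean was lowest in IP20D-3, at 5.919, next lowest in IP14D-101, at 6.666, and highest in ESC2, at 7.576. By brightest probe set Dnmt3b had the same lines at these places, at 10.43, 11.18 and 12.06. Dnmt3a was lowest in IP20D-3 as well, but highest in IP14D-101. Of 10 pluripotency markers, Esrrb and Fgf4 were called higher in IP20D-3 than in ESC2. The part of these cell states in the Dnmt3 and Tet2 levels was not tested.

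Of 21 measured fibroblast markers, which can come from feeder cells, 7 were called lower in IP20D-3 than in ESC2 and 0 higher. The share of all genes called in that pair was 8.6%. Thbs1 was 10.4-fold, Lox 7.35-fold, Acta2 6.62-fold and Col5a2 5.69-fold lower. The summed intensity of the list was 3738.4 to 4021.9 on the IP20D-3 arrays and 4499.7 to 4969.4 on the ESC2 arrays. That sum includes Fn1, which went the other way, at 11.23 ± 0.07 in IP20D-3 and 10.23 ± 0.12 in ESC2. The collagen gene Col1a1, which was not called, stood at 4.55 ± 0.10 and 5.07 ± 0.08, near the array median in both. IP36D-3 and IP14D-101, the lines with the most Dnmt3a, also had 7 of 21 called lower than ESC2. The shares of all genes called in these pairs were 3.38% and 8.73%. The part of feeder RNA in the member differences was not tested.

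IP14D-101 stood apart in primitive endoderm markers, with 12 of 14 called higher than in ESC2, against 8.73% of all genes called in either direction. The median difference was 2.26 against 0.148 over all genes. The list mean of IP14D-101 was 7.971, against 5.642 to 6.278 in the other lines. The summed intensity was 5344.5 to 5798 on its arrays and 2283.8 to 2408.6 on those of ESC2. Gata6, which defines this lineage, was at 7.34 ± 0.07 in IP14D-101 and at 3.76 ± 0.10 in ESC2. By brightest probe set IP14D-101 was also the highest line in Dnmt1 and Dnmt3a. IP36D-3, next in Dnmt3a at 10.20, had an endoderm list mean of 5.967. R1, next in Dnmt1 at 10.05, had one of 6.278. The part of these markers in the Dnmt1 and Dnmt3a levels was not tested.

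**Figure D5:**
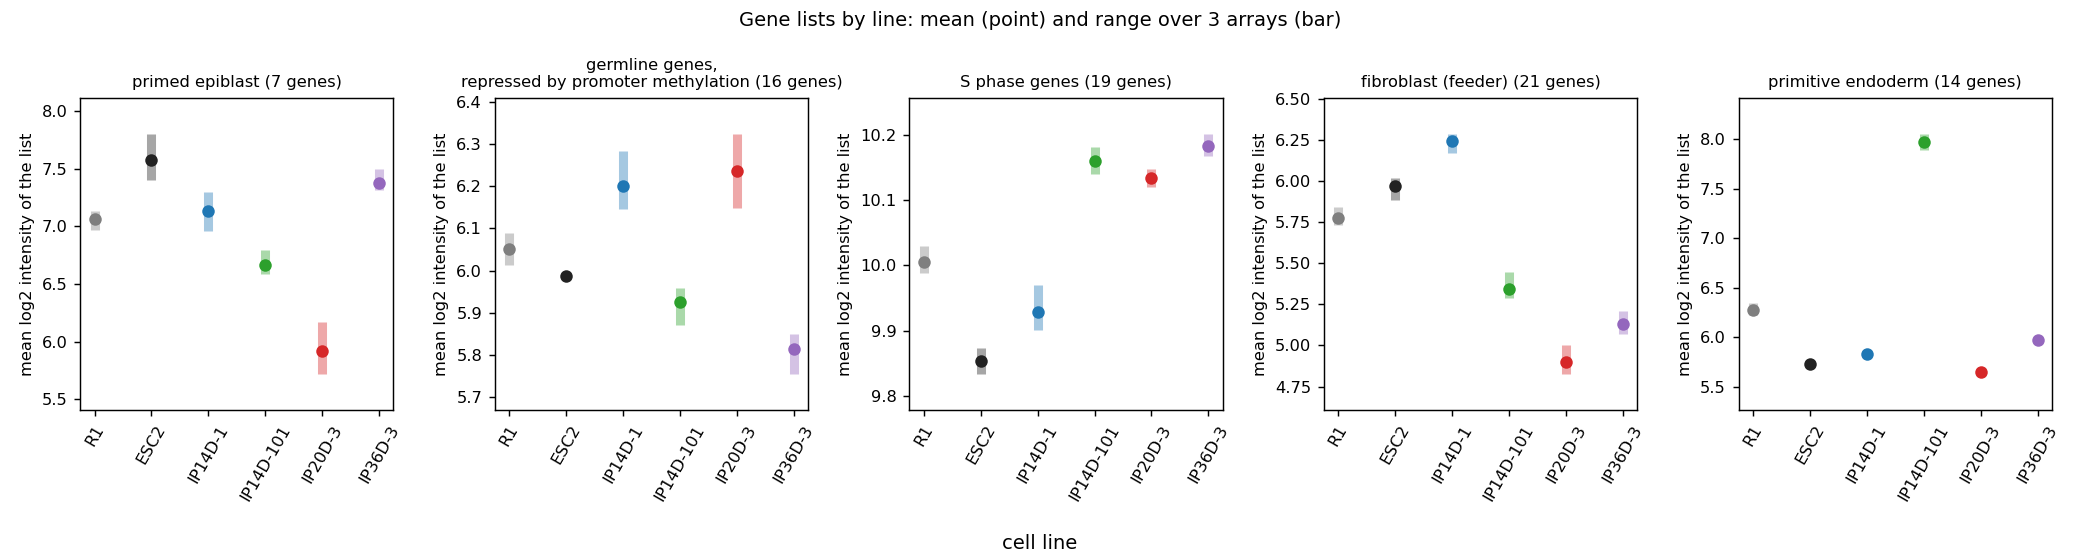
Mean log2 intensity (vertical axes) of 5 gene lists in the 6 lines (horizontal axes); points are line means and bars span the lowest to the highest of 3 arrays, and each panel has its own scale. IP20D-3 is lowest for primed epiblast (5.919) and fibroblast genes (4.901), ESC2 is lowest for S phase genes (9.854), and IP14D-101 is highest for primitive endoderm genes (7.971).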

How the data were processed

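The authors deposited probe set intensities made with RMA (background correction, quantile normalisation and probe summary), per the submitters' processing notes, on a linear scale. No source names the RMA version. The deposited intensities were taken to log2, and 64 of 45101 probe sets, the controls, were left out. Symbols came from the platform annotation: 34945 probe sets had 1 symbol, 932 several and 9160 none, and 34741 matched a RefSeq gene (GRCm38.p6) with 0 symbols changed. Lines were compared in limma 3.58.1 (R 4.3.3) with 1 mean per line, and iPS against ES on line means. The steps were tested on simulated data. Tables and plots used Python 3.11.15, pandas 2.3.3, numpy 2.4.6 and matplotlib 3.10.9.

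The members and the lists were chosen with earlier results of these data known. All members are named. Up to 4 called genes of a list are named per comparison, or all where a count is 5 or fewer, and the 5 genes most like each called member. Other gene names and levels were chosen after their values were seen. Some genes of the lists are not reported here, and counts are over the measured ones. Replicate numbers did not pair the arrays: deviations of same-numbered arrays from their line means correlated at -0.246 to 0.255. Alternatives were a replicate block, each array left out, 1 probe set per gene, a filter on dim probe sets, centred arrays, repeated quantile normalisation, only the lines compared and array weights.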

Additional observations from a re-analysis of the deposited data

Results flagged for a closer look

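Among the 4 iPS lines, IP14D-101 stood apart in the Tet1 probe set 1419897_at, at a line mean of 5.48 against 4.90 to 4.99 in the others. Its gap to the nearest line was 0.842 of the whole range, above the critical value of Dixon's test for 4 values. The level is near the array median, and the brighter Tet1 probe sets did not exceed that value. Chance alone sets apart about 1 in 20 groups, and this was 1 of 40 groups tested.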

How the results depend on the processing

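Of the 23 called member differences, 20 kept direction and call under every alternative run. Over 299 alternative values, 293 stayed on the same side of the threshold, 6 lost the call and 0 reversed. The losses were in Dnmt3a (IP14D-1 minus IP14D-101), Tet2 (IP20D-3 minus IP36D-3) and Dnmt1 (IP14D-101 minus ESC2), where sizes lay near the fold threshold. For IP14D-1 minus IP14D-101, array weights gave 0 members called in place of 1. Leaving out 1 array gave 0 to 1 members called for IP14D-1 minus IP36D-3, IP14D-1 minus IP14D-101, IP36D-3 minus IP14D-101 and IP14D-101 minus ESC2, and 1 to 2 for IP36D-3 minus R1. With the replicate number as a block, IP20D-3 minus ESC2 still had 3 members called, and the block changed no other call. For iPS minus ES, leaving out 1 line gave -0.24 to 0.64 for Dnmt1, -0.20 to 1.09 for Dnmt3a and -0.044 to 1.33 for Tet1, with the sign turned without ESC2 for Dnmt1 and without R1 for the others. The values were -0.48 for Dnmt3a and -0.17 for Tet1 with only the B6 x D2 lines. The cause was not tested. Tet3 could not be tested under the filter on dim probe sets, which removed it. Signal near the array median limits what can be read for Tet3 and for the dimmest probe sets of Dnmt3a and Tet1.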
